A study of Mus musculus with 4 samples.

Results

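Egr1, Egr2, Egr3, Ier2, Ier3, Ier5, Nr4a1, Nr4a2, Srf and Myc are 10 immediate early genes that encode no subunit of AP-1, the dimer of FOS and JUN proteins. Their loci were examined in 4 peak lists of chromatin immunoprecipitation sequencing (ChIP-seq) from mouse cells, 2 for the transcription factor RUNX1 and 2 for the repressive histone mark H3K27me3. A peak was assigned to a gene when its summit, the base of highest enrichment, lay in the gene body of the GENCODE annotation of mm10 or within 50 kb of it, and it was called the gene's own when no other gene had a closer transcription start. These 10 genes are of 21938 protein-coding genes in the annotation, and their windows held 49 of the 18389 summits of the RUNX1 library labelled -DOX and 57 of the 21831 of the one labelled +DOX. The windows also held 15 of 6356 H3K27me3 summits in the library titled untr and 12 of 7233 in the library titled DOX. The rule that defines these loci uses gene names and positions and no measured value.

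All 4 libraries came from mouse embryonic stem cells with the genotype Tet-on dominant-negative FOS (dnFOS), in which Doxycycline (DOX) switches on a peptide that interferes with AP-1. The cells had been differentiated in vitro for 2 days to floating haematopoietic progenitors, and chromatin was crosslinked with DSG and formaldehyde. By its labels, 1 RUNX1 library came from cells given Doxycycline and 1 from cells given None, but the run names inside their peak lists state the reverse. Each RUNX1 library is therefore named by its label, +DOX or -DOX, and its treatment was not settled. Title and treatment label disagree for each H3K27me3 library, and the protocol attached to both names an antibody against RUNX1. They were placed in no group and go by their titles only. With 1 library per condition there was no replicate error to set a difference against, no test was possible, and every difference below compares those libraries and not the conditions. Nothing in the peak lists measures RNA, so neither the induction of dnFOS nor the cell type given in the labels was checked.

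Immediate early genes are switched on by growth factors, cytokines and stress without prior protein synthesis, through factors already present in the cell. The best known route runs from MAP kinase to SRF and its ETS-family partners, which sit together at CArG boxes in the promoters, and a second route runs through CREB at the cyclic AMP response element (CRE). Many products are themselves transcription factors that start the next wave of expression, and in blood cells they act beside lineage factors such as RUNX1, which defines haematopoietic enhancers.

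To show what RUNX1 bound at these loci, the genome sequence (mm10, plus strand) of 101 bases centred on the summit is given for sites that the results turn on. Capitals mark matches to consensus letters searched on both strands. These were TGTGGT or TGCGGT for RUNX and TGACTCA or TGAGTCA for AP-1. For ETS they were CAGGAAG or CAGGAAA and also CCGGAAG or CCGGAAA, and for the ETS factor PU.1 they were GAGGAAGT. The others were TGACGTCA for CRE, AGATAA for GATA and GCGTGGGCG or GCGGGGGCG for EGR. AAAGGTCA stood for the NBRE bound by NR4A proteins and CACGTG for the E-box bound by MYC, and the CArG box was searched as well. A match describes letters, not a bound site. The first 4 are a site 20.1 kb upstream of Egr3 with RUNX, ETS and AP-1 letters close together, the strongest of Egr3's own sites with RUNX letters beside a CArG box, the intronic site of Egr2 and the strongest own site of Nr4a1.
Egr3 upstream, chr14:70057092-70057192: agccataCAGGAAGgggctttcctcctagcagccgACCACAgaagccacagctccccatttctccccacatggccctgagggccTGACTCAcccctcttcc
Egr3 own, chr14:70074784-70074884: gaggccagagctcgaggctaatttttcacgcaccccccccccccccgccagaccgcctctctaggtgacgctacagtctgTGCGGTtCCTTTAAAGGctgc
Egr2 intron, chr10:67537173-67537273: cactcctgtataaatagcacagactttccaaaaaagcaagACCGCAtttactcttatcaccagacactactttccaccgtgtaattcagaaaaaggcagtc
Nr4a1 own, chr15:101246489-101246589: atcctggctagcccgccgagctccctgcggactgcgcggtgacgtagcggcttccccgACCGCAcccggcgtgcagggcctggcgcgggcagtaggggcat

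The next 4 are strong sites close to Nr4a2, Ier5, Ier2 and Ier3. The first and second of them hold no match in the bases shown.
Nr4a2 start, chr2:57124163-57124263: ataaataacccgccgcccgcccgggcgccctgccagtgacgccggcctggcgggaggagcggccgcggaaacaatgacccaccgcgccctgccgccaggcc
Ier5 window, chr1:155083466-155083566: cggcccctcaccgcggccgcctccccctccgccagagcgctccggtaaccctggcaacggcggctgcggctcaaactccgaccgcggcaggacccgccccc
Ier2 upstream, chr8:84663991-84664091: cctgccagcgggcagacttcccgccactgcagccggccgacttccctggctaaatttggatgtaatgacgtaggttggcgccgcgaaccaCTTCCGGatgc
Ier3 downstream, chr17:35823016-35823116: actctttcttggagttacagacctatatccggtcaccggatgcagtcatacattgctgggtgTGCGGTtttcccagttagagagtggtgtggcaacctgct

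The last pair are sites in the windows of Egr3 and Nr4a1 where summits of all 4 lists fell together. The first is a tandem repeat in which 87.5% of bases equal the base 21 positions further on, with RUNX letters in 3 copies, and the second holds an unbroken run of 32 C.
Egr3 window, chr14:70110973-70111073: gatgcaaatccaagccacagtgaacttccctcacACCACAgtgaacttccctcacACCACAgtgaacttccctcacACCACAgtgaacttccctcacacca
Nr4a1 window, chr15:101311376-101311476: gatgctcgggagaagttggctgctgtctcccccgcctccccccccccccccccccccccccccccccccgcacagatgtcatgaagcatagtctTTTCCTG

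RUNX1 summits were found in every one of the 10 windows, and 17104 of 21938 protein-coding genes likewise had a RUNX1 site in theirs. Summits of the RUNX1 lists were extended by 200 bp to both sides and merged into sites where they touched, which gave 61 sites in the windows out of 24972 in the genome. Of the 61, 43 had a summit in both lists, 4 in the list labelled -DOX alone and 14 in the list labelled +DOX alone. Sites of the -DOX list alone were 6.56% of the sites in the windows, beside 14.8% of all sites, and sites of the +DOX list alone were 23.0%, beside 28.4% of all sites. With the libraries exchanged the 4 and the 14 change places, and with each list shortened to its 15000 highest peaks they became 7 and 4. No peak of the other list overlapped any of these 18 sites. The share of all sites of a single list without such an overlap was not computed, so this does not set the 18 apart.

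The number of RUNX1 sites differed widely among the 10 loci. Ier2 had 13 sites or 12.8 per 100 kb of window, which placed it at the 99.7th percentile of protein-coding genes. Egr1 and Egr3 had 10 each, at 9.51 and 9.49 per 100 kb, and Ier3 had 7 at 6.91. Ier5 with 6 and Nr4a1 with 7 both came to 5.81. Egr2 and Nr4a2 had 3 each, at 2.81 and 2.56, while Myc and Srf had a single site each, at 0.953 and 0.927 per 100 kb, which is the 35.4th and the 34.0th percentile. The median of the 10 was 5.81, against 1.84 over all protein-coding genes with an interquartile range of 0.553 to 3.70. The windows of the 10 genes held a median of 1.5 other protein-coding genes with a start there, against 2.00 over all such genes, with 5 each around Ier2 and Ier3 and none around Nr4a2 and Myc.

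**Figure D1:**
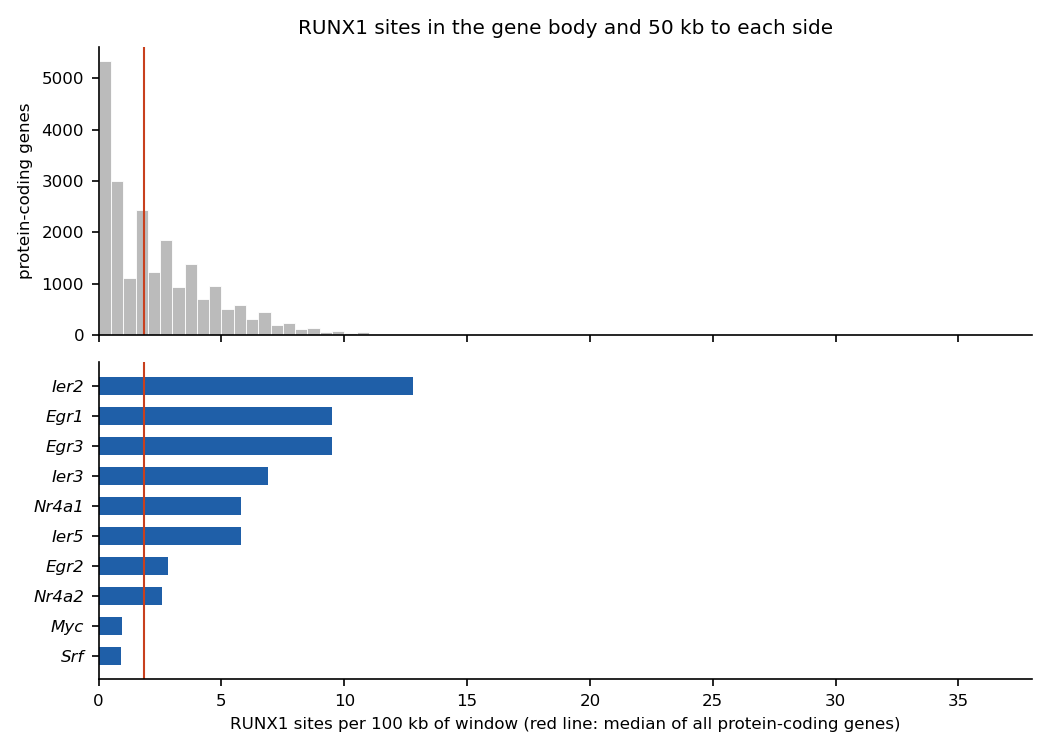
Upper panel, number of protein-coding genes (vertical axis) by RUNX1 sites per 100 kb of window (horizontal axis, bins of 0.5). Lower panel, the same density for each of the 10 genes, with the median of all protein-coding genes (1.84) as a red line; Ier2 reaches 12.8, and Myc and Srf lie below the line at 0.953 and 0.927.

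RUNX1 summits lay in the neighbourhood of an annotated start at nearly all of the genes. For 9 of the 10, each RUNX1 list had a summit within 1500 bp of an annotated start, beside 40.2% of protein-coding genes. The exception was Nr4a1, with a summit there in the list labelled +DOX only. With a limit of 500 bp the 9 became 6. At Ier3 the site lay 1.38 kb from the start, beyond the end of the gene and nearer a start of Flot1. Of the 10, 9 had at least 1 own site, beside 51.9% of protein-coding genes, and the exception was Ier3. In all, 25 of the 61 sites were own sites, of which 16 were in both lists, 3 in the -DOX list alone and 6 in the +DOX list alone. The other 36 sites lay closer to the start of a neighbour.

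**Figure D2:**
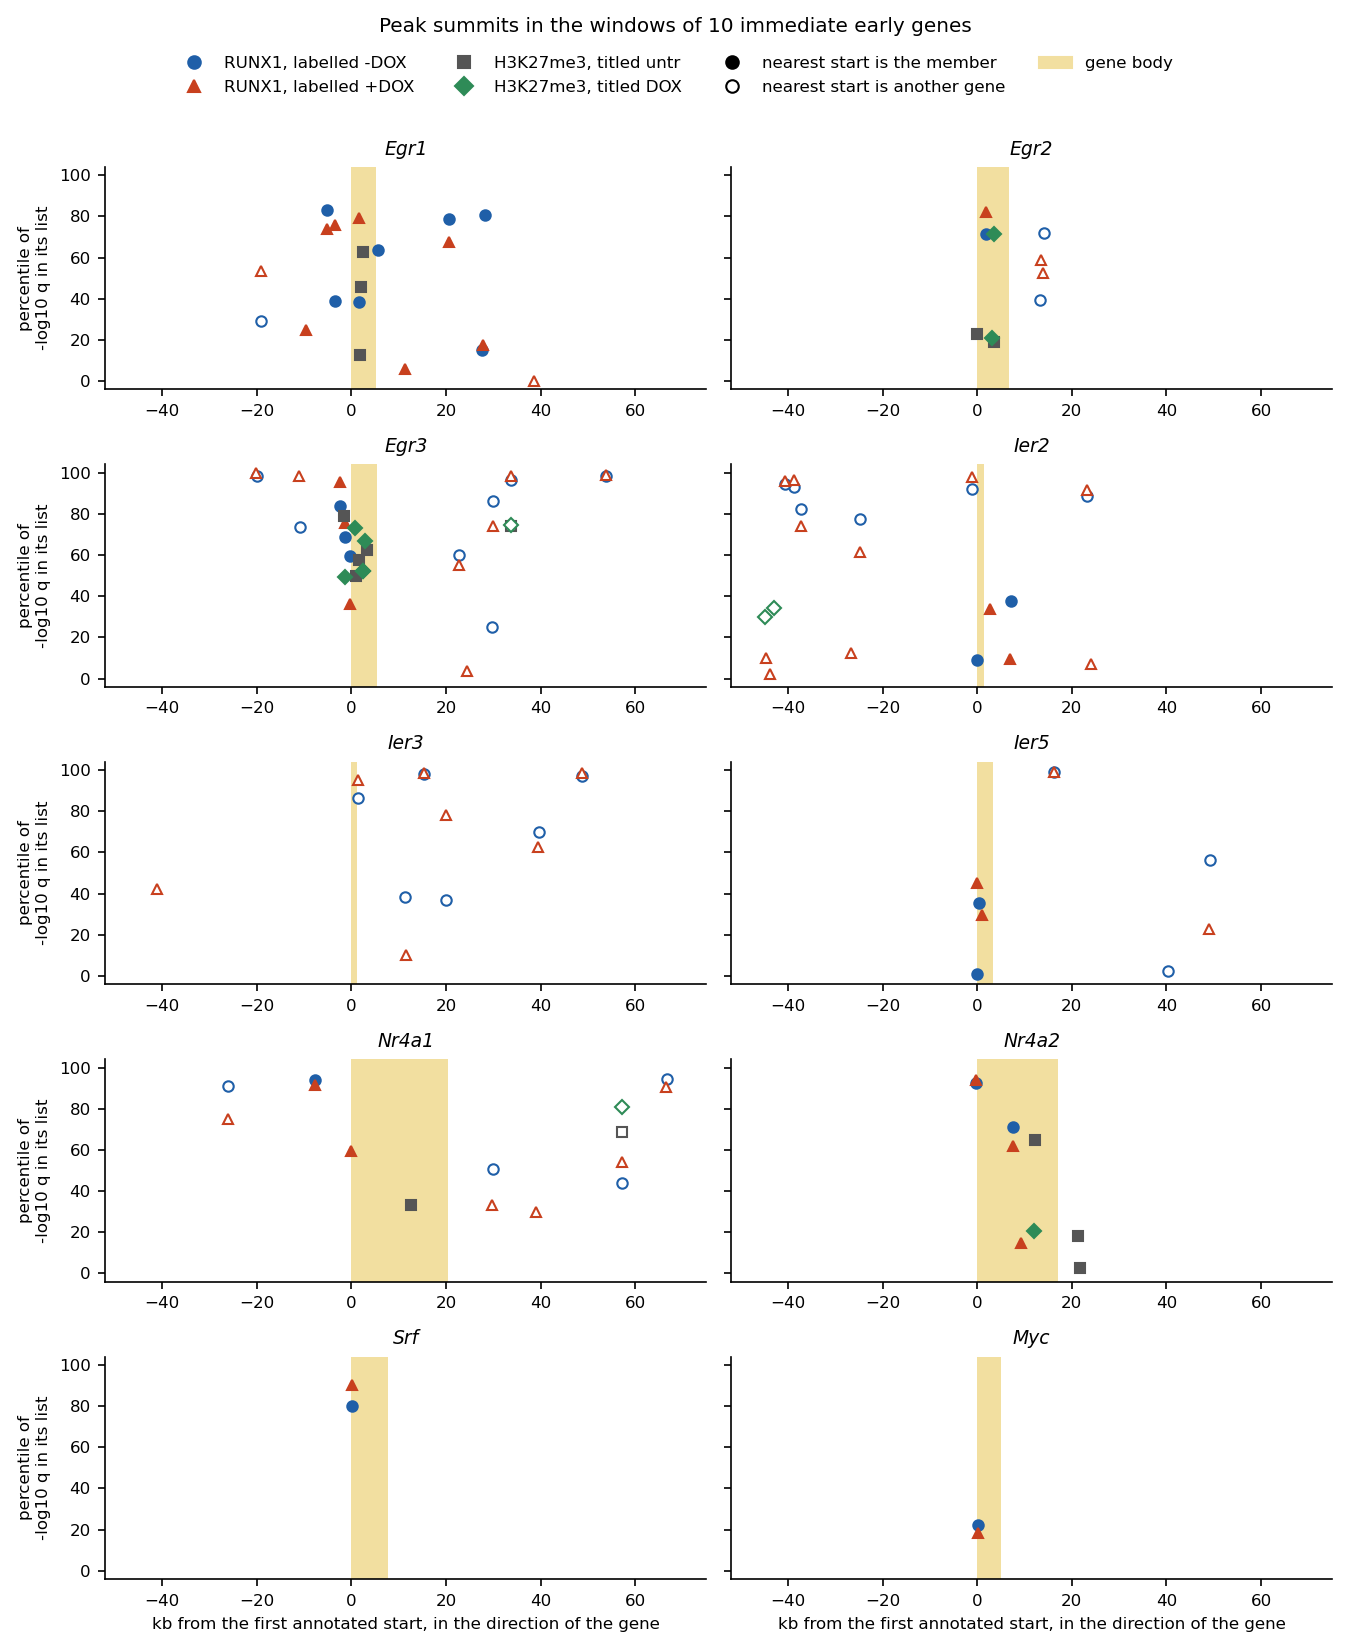
Each panel is the window of 1 gene, with the distance in kb from its first annotated start in the direction of the gene on the horizontal axis and the percentile of a peak's -log10 q within its own list on the vertical axis. Filled symbols are own summits and open symbols are closer to another gene's start, with the gene body shaded. Egr1 has 8 own sites, Srf and Myc have 1 each, and the highest symbols near Egr3, Ier2, Ier3 and Ier5 are open.

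The strength of a peak is given as the -log10 of its q-value and as the percentile of that value within its own list, where 100 is the strongest peak, since values of separate libraries are not on one scale.

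Among the EGR genes, zinc finger factors that bind GC-rich sites, Egr1 (chromosome 18, 34859823 to 34864984, plus strand) had 8 own RUNX1 sites, at the 99.9th percentile of protein-coding genes. They ran from 9.53 kb upstream of its first annotated start to 28.2 kb downstream of it. The site 5198 bp upstream had a -log10 q of 20.5 in the -DOX list (83.1st percentile) and 15.3 in the +DOX list (73.7th), and held RUNX letters and an E-box. The site 20.8 kb downstream had 17.3 (78.6th) and 12.9 (67.8th) and held GATA letters. These sites were of upper rank in both lists, somewhat higher in the one labelled -DOX.

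Other own sites of Egr1 differed more between the lists. At the site 149 bp from the nearer annotated start, in a UTR, -log10 q was 6.58 in the -DOX list (38.3rd percentile) and 18.1 in the +DOX list (79.3rd), a shift of 41.0 percentile points. At the site 3.47 kb upstream it was 6.68 (38.9th) and 16.3 (76.0th), a shift of 37.1 points, and this site held ETS letters. So the start of Egr1 and the site just upstream were both ranked higher in the library labelled +DOX, or lower in it if the libraries are exchanged.

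Downstream of Egr1 the order was the other way. The site 28.2 kb from the first start had 18.8 in the -DOX list (80.7th percentile) and 4.58 in the +DOX list (17.4th), but it was a chain of merged peaks whose strongest summits in the lists lay 288 bp apart. A site 5.56 kb downstream was in the -DOX list alone, with a -log10 q of 11.2 and a fold enrichment of 4.38 (63.9th and 32.9th percentiles), and it was the only own site of the 10 genes with AP-1 letters, TGACTCA, with ETS and GATA letters in the same 200 bases. In the +DOX list alone Egr1 had sites 9.53 kb upstream (5.32, 24.6th percentile) and 11.3 kb downstream (3.39, 6.09th). Of its sites nearer another gene, the stronger lay by the start of Reep2, with 5.48 in the -DOX list and 9.22 in the +DOX list.

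Egr2 (chromosome 10, 67535475 to 67542188, plus strand), known for its part in myelination and in lymphocytes and macrophages, had 1 own site. It lay in an intron 646 bp from the nearest of its starts, with 13.8 in the -DOX list (71.3rd percentile) and 20.01 in the +DOX list (82.1st), and held the RUNX letters printed above 7 bp from the summit. The remaining sites in the window lay at the start of Ado, which encodes a cysteamine dioxygenase, with 14.1 and 9.03 at the stronger of them.

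Egr3 (chromosome 14, 70077203 to 70082614, plus strand), a relative of Egr2 studied in muscle spindles and lymphocytes, had 3 own sites, each in both lists. The site 2.37 kb upstream had 21.2 (83.8th percentile) and 46.6 (95.5th), the highest own value of the 10 genes in the +DOX list, and it was the only own site with a CArG box. The site 1.26 kb upstream had 12.9 (68.9th) and 16.2 (75.7th), and the one 246 bp upstream had 10.1 (59.6th) and 6.47 (36.1st). The rank thus grew with distance from the start in both lists.

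Yet the strongest peaks around Egr3 were nearer to other starts. The site 20.1 kb upstream, 225 bp from the start of the non-coding gene Gm33524 and in an intron of Pebp4, had 78.7 in the -DOX list (98.5th percentile) and 149 in the +DOX list (99.7th), with fold enrichments of 11.9 and 16.5. In the +DOX list it was the highest percentile of any site in the 10 windows. The site 10989 bp upstream had 14.7 (73.5th) and 75.8 (98.4th), a shift of 24.9 points. Introns of Bin3 downstream held a site at 53.9 kb with 73.0 and 81.8 (98.2nd and 98.7th percentiles) and the tandem repeat at 33.8 kb with 55.1 and 75.8. Bin3 was named after its values were seen. At that repeat the H3K27me3 summits of the libraries titled untr and DOX lay 20 and 25 bp from the RUNX1 summit, and the part of the repeat in these peaks was not tested.

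The IER genes encode small regulatory proteins of the early response. Ier2 (chromosome 8, 84661331 to 84662852, minus strand) had 3 own sites and all were of low rank. The site 7.12 kb downstream of the start had 6.51 (37.9th percentile) and 3.72 (9.38th). The site 2.79 kb downstream was in the +DOX list alone at 6.38 (33.7th), and the one 12 bp from the start was in the -DOX list alone at 3.53 (9.003rd percentile). The latter was the only own site with CRE letters. The peak that dominated the start lay 1.19 kb upstream of Ier2, slightly closer to the non-coding gene Gm26664, with 33.4 (92.0th) and 64.8 (97.7th) and the ETS letters printed above. Much of the density around Ier2 belonged to its neighbours, since 10 of its 13 sites lay nearer another start. A pair of these were at Lyl1, a haematopoietic bHLH factor named here after its values were seen, with 53.4 and 50.3 in the +DOX list.

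Ier3 (chromosome 17, 35821684 to 35822923, plus strand), a regulator of cell survival, had no own site. A site 1.38 kb downstream of its start, beyond the end of the gene and 164 bp from a start of Flot1, had 24.2 in the -DOX list (86.6th percentile) and 45.4 in the +DOX list (95.3rd). Its RUNX letters lay 15 bp from the summit. The highest percentile in the window over both lists was in an intron of Ppp1r18, 48.7 kb downstream, with 61.3 in the -DOX list (97.3rd) and 78.4 in the +DOX list (98.5th). A site in an intron of Tubb5, 15.4 kb downstream and named after its values were seen, was nearly as high in the +DOX list at 75.6 (98.4th) and higher in the -DOX list at 69.3 (97.9th).

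Ier5 (chromosome 1, 155096361 to 155099636, minus strand), linked to the heat shock response, had 3 own sites inside the gene. The site 36 bp from the start had only 2.298 in the -DOX list (1.12th percentile) and 7.88 in the +DOX list (45.2nd), a shift of 44.1 points, which was the largest rise among the 43 shared sites of the windows. A site 459 bp into the gene was in the -DOX list alone (6.08, 35.3rd) and one at 903 bp in the +DOX list alone (5.74, 29.8th). These summits are close together, and the assignment of each to a list rests on low peaks. The site 16.1 kb downstream, 250 bp from the start of Gm9530, had 96.4 and 101 with fold enrichments of 16.9 and 15.8 (99.1st and 99.3rd percentiles for -log10 q). Its 200 bases held no RUNX letters and were 81.0% G or C.

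Nr4a1 and Nr4a2 encode orphan nuclear receptors that bind DNA without a known ligand. Nr4a1 (chromosome 15, 101254269 to 101274795, plus strand) had a site 7.73 kb upstream of its first start with 39.0 in the -DOX list (93.9th percentile) and 32.6 in the +DOX list (91.6th), the highest own percentile in the former. At its first start, 114 bp upstream, a summit was in the +DOX list alone, with a -log10 q of 10.6 and a fold enrichment of 5.92 (59.3rd and 63.8th percentiles). Together with the site 5.56 kb downstream of Egr1, it was 1 of 2 sites of a single list in the 10 windows with a -log10 q of at least 10. The strongest site nearer another gene lay 66.6 kb downstream by Gm35853, with 42.8 (94.6th) and 30.4 (90.6th).

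The site at the run of C, 57.2 kb downstream of the first start of Nr4a1, had 7.24 in the -DOX list and 9.37 in the +DOX list. Both H3K27me3 summits lay 1 bp from it. Their -log10 q was 9.03 in the library titled untr (68.9th percentile) and 9.996 in the one titled DOX (80.6th). It was the only 1 of the 61 sites in the windows (1.64%) with summits of both H3K27me3 lists within 20 bp, beside 1.54% of all 24972 RUNX1 sites. At the repeat near Egr3 the summit of the library titled DOX lay 25 bp away.

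Nr4a2 (chromosome 2, 57106830 to 57124003, minus strand), known for its role in dopaminergic neurons, had only own sites. The site 210 bp upstream of its first start had 35.0 in the -DOX list (92.7th percentile) and 39.3 in the +DOX list (93.9th), with fold enrichments of 10.01 and 10.05. None of the letters searched were found in its 200 bases. A site in an intron had 13.7 (71.1st) and 11.2 (61.9th), and a weak one was in the +DOX list alone (4.20, 14.9th).

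Srf (chromosome 17, 46548329 to 46556175, minus strand), which encodes the serum response factor that binds CArG boxes, had 1 site in its window, 110 bp from its start in the UTR. It had 18.3 (80.0th percentile) and 29.6 (90.2nd) and held ETS letters. Myc (chromosome 15, 61985391 to 61990374, plus strand), the growth regulator that pairs with MAX at E-boxes, likewise had 1 site, 51 bp from its first start in the UTR. At 4.82 (22.4th) and 4.72 (18.6th) it was among the weaker peaks of each list, and its 200 bases held none of the letters searched.

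Over the 43 shared sites, percentiles in the list labelled +DOX were higher at 24 and lower at 19. The median shift was 0.546 percentile points with extremes of -63.3 and 44.1, and over all 14177 shared sites the median was 1.83 with 58.0% higher. Of the 16 shared own sites 8 were higher and 8 lower, with a median of -0.551. Strong sites such as those at the starts of Nr4a2 and Srf ranked high in each list. The larger shifts of own sites were at peaks of middle or low rank in at least 1 list, as around Egr1 and Ier5. Percentiles have an upper limit, so a site that ranks high in both lists cannot shift far by this measure. This contrast therefore does not show whether strong sites differ less between the libraries than weak ones. How far replicates of one condition would differ is not known from these lists.

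**Figure D3:**
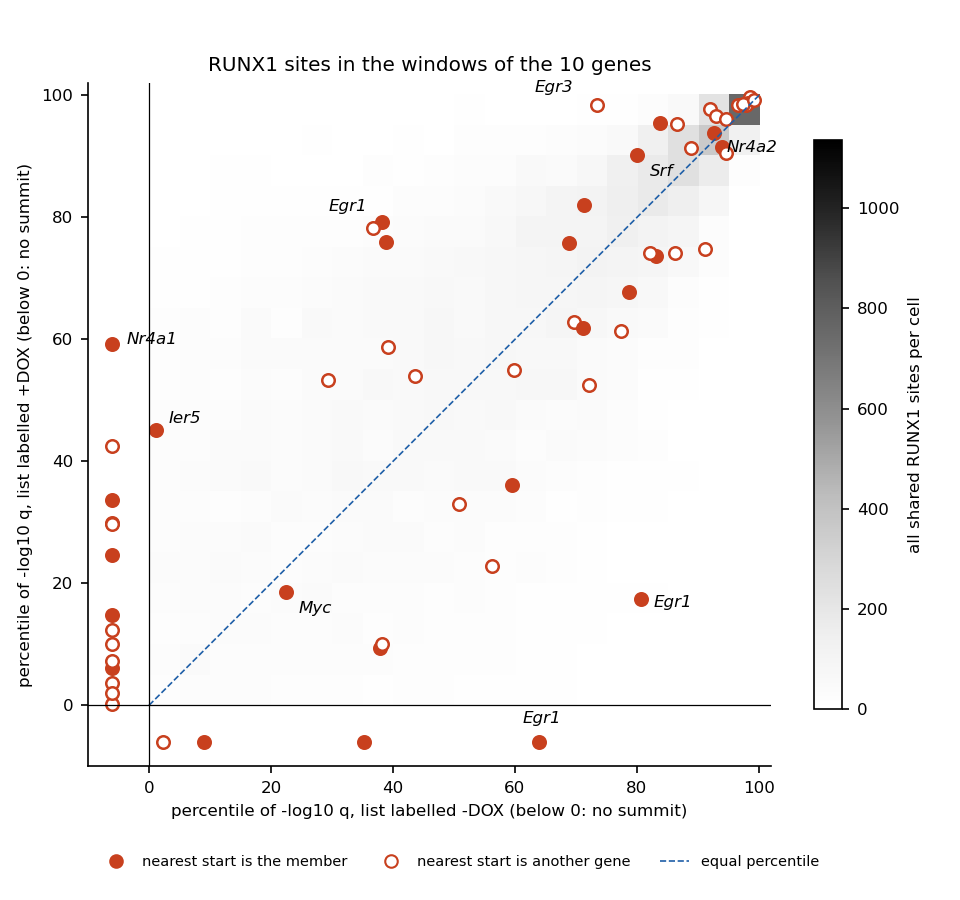
Percentile of -log10 q in the RUNX1 list labelled -DOX (horizontal) against that in the list labelled +DOX (vertical) for the 61 sites, filled where the nearest start is the gene itself; sites in 1 list alone are drawn below 0 on the other axis. The grey field counts all 14177 shared sites in cells of 5 percentile points. The start of Egr1 (38.3 and 79.3) and that of Ier5 (1.12 and 45.2) lie far above the line of equal percentile.

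Consensus letters were then counted in the 200 bases at each summit. RUNX letters were at 6 of the 25 own sites (24.0%, 95% Wilson interval 11.5 to 43.4), beside 37.4% of all RUNX1 sites. Near a start they were at 2 of 14 own sites, beside 27.8% of all such sites, and over 1500 bp from every start at 4 of 11, beside 48.8%. ETS letters were also at 6 of 25, beside 29.9%. AP-1 letters were at 1 of 25 (4.00%, 0.710 to 19.5), beside 4.97%, GATA letters at 4 of 25, beside 11.7%, and EGR letters at 2 of 25, beside 3.15%. The CArG box was at 1 of 25, beside 0.585%, CRE letters at 1 of 25, beside 1.01%, and the E-box at 1 of 25, beside 4.72%. PU.1 and NBRE letters were at none of the 25, with an upper bound of 13.3%, beside 4.66% and 0.621%. These intervals reflect only the small number of sites, and they contain the share of all sites for each motif but the CArG box. Its interval begins at 0.710% but rests on 1 site, so no excess can be read from it. Over all 61 sites of the windows the CArG box was at 1, with an interval of 0.290 to 8.72 that contains 0.585%. At 1 of the 61 sites matches of different motifs shared bases.

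The 36 sites nearer another gene held RUNX letters at 14 (38.9%, 24.8 to 55.1) and ETS letters at 13 (36.1%). AP-1 letters were at 2 of them, both around Egr3, the upstream site printed above and one in Bin3.

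Of the 10 genes, 6 have an entry in the RefSeq promoter table (GRCm38.p6), which spans 250 bases before to 50 after each start. They are Egr2, Ier3, Ier5, Nr4a1, Nr4a2 and Srf, and Egr1, Egr3, Ier2 and Myc were not matched. A CArG box, found in 1.63% of 32851 promoters, was in those of Egr2 and Srf. AP-1 and CRE letters were in none of the 6 and in 5.20% and 1.79% of all promoters. RUNX letters were in those of Egr2 and Ier5, and ETS letters in those of Egr2, Ier3 and Srf. The shares of all promoters count single promoters, and Egr2 has several. Counted likewise, RUNX letters were in 2 of the 10 promoters of these genes, beside 22.4%, and ETS letters in 3 of 10, beside 30.9%. The CArG box was in 5 of the 10, most of them promoters of Egr2. The boxes of Egr2 and Srf, the elements through which SRF is known to act, are shown with 10 bases to each side in the direction of the gene.
Egr2 first box, chr10:67537484-67537513, plus strand: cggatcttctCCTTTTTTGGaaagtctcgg
Egr2 second box, chr10:67537787-67537816, plus strand: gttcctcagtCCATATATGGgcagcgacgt
Srf distal box, chr17:46556225-46556254, minus strand: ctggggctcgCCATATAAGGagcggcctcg
Srf proximal box, chr17:46556205-46556234, minus strand: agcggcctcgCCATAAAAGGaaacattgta

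H3K27me3, the mark left by Polycomb at silent developmental genes, was listed at the EGR and NR4A genes. The windows of Ier3, Ier5, Srf and Myc held no summit in either list. How many of all protein-coding genes have such an empty window was not computed, so this absence cannot be read as a trait of these genes. In the library titled untr, 5 of the 10 genes (Egr1, Egr2, Egr3, Nr4a1 and Nr4a2) had a summit within 1500 bp of a start, beside 11.7% of protein-coding genes. In the library titled DOX, Egr2, Egr3 and Nr4a2 did, which is 3 of 10 beside 11.1%. These calls were narrow, with a median width over each whole list of 180.0 and 122.0 bp, whereas the mark is known to form broad domains, so a gene without a summit may still carry the mark.

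Egr3 had the most, with 4 own summits in the library titled untr and 5 in the library titled DOX. Their -log10 q was 6.49 to 11.6 (49.8th to 79.1st percentile) in the former and 5.22 to 8.13 (49.2nd to 72.9th) in the latter. By fold enrichment these summits ranked low, at 2.92 to 3.63 (2.02nd to 9.13th percentile) and 2.98 to 3.36 (2.18th to 4.92nd). They lay from 1558 bp upstream to 3234 bp downstream of its first start. Most of them were downstream of the start, beyond the own RUNX1 sites of Egr3, which all lay upstream of it. The RUNX1 site 1.26 kb upstream of Egr3 lay under a peak of each H3K27me3 list. Such sites were 3 of the 61 in the windows (4.92%), beside 4.99% of all RUNX1 sites. At Egr1 there were 3 summits in the library titled untr, within 1017 bp of the nearer start, and none in the library titled DOX. The 3 had 3.46, 6.12 and 8.01 (12.9th, 45.9th and 62.6th percentiles). Egr2 had 2 in each library. A position in an intron was at 4.00 (18.8th percentile) in the one titled untr, where the summit 7 bp from the first start had 4.25 (23.1st). In the one titled DOX that position was at 7.93 (71.2nd) and was the stronger. Nr4a2 had 3 in the library titled untr and 1 in the library titled DOX. At positions in a coding exon that lay close together it had 8.40 (64.8th) and 3.38 (20.8th). Nr4a1 had 1 own summit, in the library titled untr at 5.09 (33.2nd), 98 bp from an inner start. The window of Ier2 held summits in the library titled DOX only, over Nfix and not over Ier2. At Egr2 and Egr3, more than 1 annotated start had summits of both RUNX1 lists and of both H3K27me3 lists within 1500 bp. The share of all protein-coding genes with such a start was not computed, so no trait of these genes can be read from it. Egr2 and Egr3 have 6 and 4 annotated starts, which makes such a match easier. Whether these summits lay in the same cells cannot be told from these data. At Nr4a2 the H3K27me3 summits lay near a different annotated start from those with RUNX1 summits of both lists.

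Since enhancers of Myc used in blood cells are known to lie far beyond the gene, the 2 Mb downstream of its first start were examined as well. Beyond the window they held 12 RUNX1 sites, of which 5 were in both lists and 7 in the +DOX list alone, beside 28.4% of all sites. Except for the site 167 kb from Myc, these 7 were weak peaks. Their -log10 q was 2.78 to 4.88 (2.76th to 20.8th percentile), so the share rests on low peaks. With the libraries exchanged the 7 would be in the -DOX list alone. Of 40 bins of 50 kb, 31 had no RUNX1 summit, with an empty stretch of 1150 kb. A group of sites lay in introns of the non-coding gene Pvt1. The strongest of them was 167 kb from Myc in the +DOX list alone (11.8, 64.3rd percentile) and held RUNX, ETS and PU.1 letters, and the shared one at 174 kb had 10.7 (61.9th) and 9.91 (56.8th). Far stronger were shared sites 1.64 and 1.66 Mb from Myc, in an intron of Gm41335, with 78.9 (98.5th) and 58.9 (97.2nd) at the former and 46.8 (95.5th) and 23.6 (85.9th) at the latter. Neither held any of the letters searched, and H3K27me3 summits of the 2 libraries lay 5 and 4 bp from the former.

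**Figure D4:**
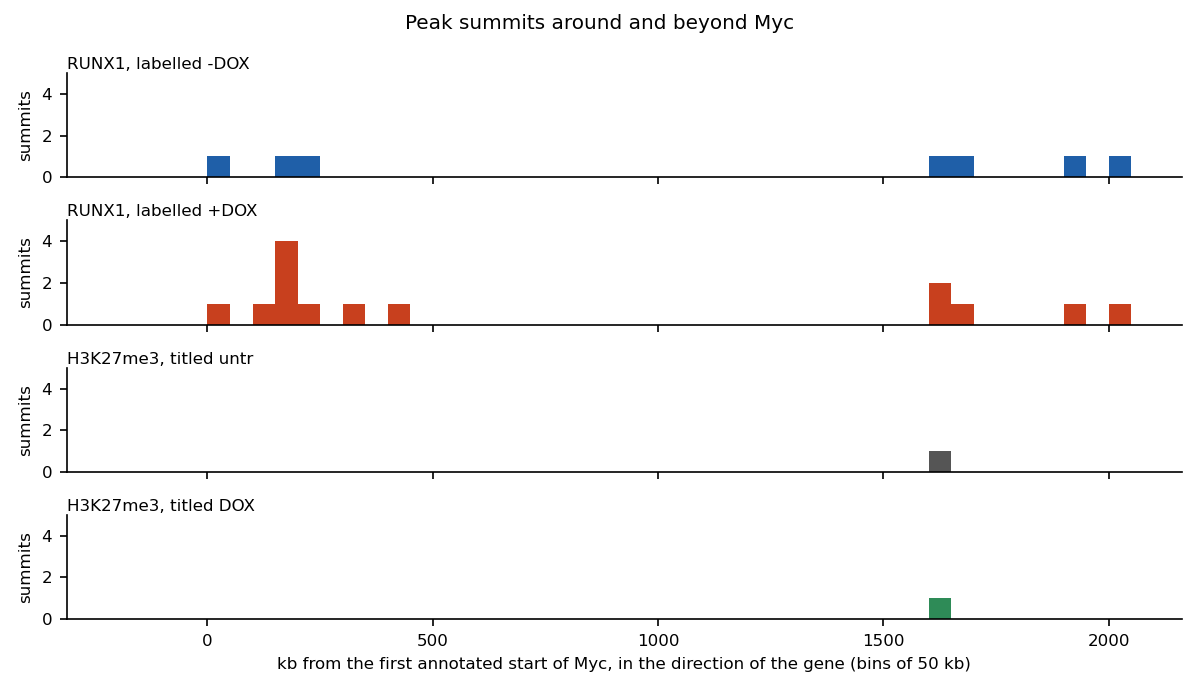
Number of peak summits per bin of 50 kb (vertical axis) by distance in kb from the first annotated start of Myc in the direction of the gene (horizontal axis), 1 panel per library. RUNX1 summits lie at Myc, in Pvt1 near 200 kb and beyond 1600 kb, with an empty stretch of 1150 kb between.

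Other gene lists are given beside the 10 genes. Over all protein-coding genes, 40.2% had summits of both RUNX1 lists near a start, and the median density was 1.84 sites per 100 kb. The 7 AP-1 immediate early genes had a median of 6.46 RUNX1 sites per 100 kb and each RUNX1 list had a summit near a start of all 7, with 13 sites around Fosb and 7 each around Fos, Fosl1 and Junb. Of 30 other immediate early genes 13 had a summit of both lists near a start (43.3%), which is close to the share of all genes. Their median density was 3.67, with 10 sites around Zfp36, which encodes an mRNA decay factor, and 8 each around Btg2 and Atf3. Of 19 partner genes of SRF, EGR and MYC proteins 14 had summits of both lists near a start. Their median density was 2.64, with 7 sites each around Elk3, Mrtfa and Mrtfb, partners of SRF. RUNX1 sites to which no other gene had a closer start were found for 7 of 7, 26 of 30 and 17 of 19 genes of these lists. This compares with 9 of the 10 genes and 51.9% of protein-coding genes, so such sites were not particular to the 10. H3K27me3 summits of the library titled untr were near a start of 2 of 7, 11 of 30 and 3 of 19 genes of these lists, beside 11.7% of protein-coding genes, and those of the library titled DOX near a start of 1 of 7, 10 of 30 and 2 of 19, beside 11.1%.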

How the data were processed

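RUNX1 and H3K27me3 ChIP-seq peak lists of 4 libraries, 1 per condition and antibody, were used. The authors aligned reads to mm10 with Bowtie2, removed duplicates with Picard and ran MACS2 on each library with a q-value limit of 0.05. The submitters' processing notes name Bowtie2 2.2.9 and MACS2 2.1.1. An input control and the steps for the H3K27me3 libraries are not given in the sources used here. For each peak the authors deposited a fold enrichment, which is a ratio to local background within that library, and p- and q-values as -log10. The lists may precede the authors' later filters, among them that against repeats, and the depth is unknown, so values were ranked within each list only.

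Unplaced sequences were left out. Summits extended by 200 bp were merged where they touched. A site took the percentile of its strongest peak in each list and was placed at the summit of the higher percentile. Transcription starts were those of all genes in GENCODE vM21. Motif letters were searched on both strands of 200 bp of the RefSeq genome of the same build, where 0 peaks passed a chromosome end. Scripts used Python 3.11.15, numpy 2.4.6, matplotlib 3.10.9 and samtools 1.23.1 and were tested on simulated data. No test between libraries was made.

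The members and lists were chosen with earlier results of these data known. By the rule for names, all 10 genes and every own site were described, with the nearest gene of the strongest other site per window and of any site of a single list with -log10 q no lower than 10, and the genes with the most sites in each other list. Alternatives changed the window, the merging, the q-value, the length of the lists, the starts and the labels.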

Additional observations from a re-analysis of the deposited data

How the results depend on the processing

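No paired analysis was possible because there was 1 library per condition, and no replicate could be left out. Of 48 alternative values for 9 counts and shares, 30 stayed within 1.5 times the reported value, or for the motif share within its interval. The number of RUNX1 sites, 61, became 38 with a window of 20 kb, 93 with one of 100 kb and 37 where -log10 q was 10 or more. Sites of the -DOX list alone, 4, became 8 at 100 kb, 7 with the 15000 highest peaks of each list, 9 with an extension of 100 bp and 14 with the libraries exchanged. Sites of the +DOX list alone, 14, became 8 at 20 kb, 23 at 100 kb, 7 where -log10 q was 5 or more, 5 where it was 10 or more, 4 with the 15000 highest peaks and 4 with the libraries exchanged. The excess of sites of the +DOX list alone over the -DOX list alone was therefore not kept with lists of equal length (4 against 7) or where -log10 q was 10 or more (5 and 5). Own sites, 25, became 15 where -log10 q was 10 or more. H3K27me3 summits, 15 and 12, became 2 and 0 at that limit. The 9 genes with a RUNX1 summit of both lists near a start became 6 with a limit of 500 bp and 6 where -log10 q was 10 or more. Chosen after seeing the data, limits of 5 and 10 left 5 and 4 of the 12 sites beyond Myc, and motif windows of 100 and 400 bp gave RUNX shares of 16.0% and 32.0%. Depth is unknown, so a gene without a summit is one where none was called.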
